A study of Mus musculus with 10 samples.

Results

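The genes described here encode the mTOR kinase, its complex partners, the GTPase that switches it on, the proteins that hold that GTPase back, and the S6 kinases it acts on. They are Mtor, Rptor, Rictor, Mlst8, Deptor, Rheb, Tsc1, Tsc2, Rps6kb1 and Rps6kb2, a fixed list of 10 genes. A member was measured by each probe set that the platform annotation lists with that gene alone. This gave 25 of the 45101 probe sets on the array, for 9 of the 10 genes. Rps6kb1 had none listed and was not analysed here. Of the 25, 17 probe sets of 8 genes lay above the array's median intensity on at least 3 arrays and entered the test, together with 23737 probe sets in all. The single probe set of Tsc2 did not, and neither did 7 dim probe sets of other members.

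The RNA came from oocytes of female B6D2F1 mice, whose age the labels do not give. The eggs were in second meiotic metaphase (MII). All groups share the same preparation: eCG, then 5 IU of hCG 48 h later, with collection after a further 16 h and removal of cumulus cells. The spindle-chromosome complex (SCC) was cut out of the oocyte by microsurgery (3 arrays, replicates 1 to 3), the cytoplast is the oocyte left without it (4 arrays, replicates 1 to 4), and the intact MII oocyte holds both (3 arrays, replicates 2 to 4). The design asks whether maternal mRNAs are enriched at the spindle. The labels name biological replicates but no animals or pools, so the tests see only array-to-array spread, which may be technical.

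The mTOR kinase works in 2 complexes. Raptor (Rptor) defines the first, which promotes translation through the S6 kinases and the 4E-binding proteins, and Rictor defines the second, which phosphorylates Akt. The small GTPase Rheb activates the first complex when it carries GTP, and the Tsc1-Tsc2 complex turns Rheb off by speeding GTP hydrolysis. A fully grown oocyte makes almost no new RNA, so meiosis draws on stored maternal transcripts whose translation is switched on and off.

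Array medians lay between 15.6 and 16.6 on the linear intensity scale of the deposited values. Up to 50 ng of total RNA was amplified in 2 rounds and 10 µg of cRNA went on each array, so values are relative within a sample. In such bulk RNA, a change in which cells or parts contribute and a change in RNA per cell cannot be told apart. A level was called above background on an array if it exceeded the 95th percentile of probe sets for genes of other tissues there (73.5 to 107). Of 12 oocyte markers, 10 were above it on all arrays, and of 15 cumulus and granulosa markers with a probe set, 12 were above it on none. The exceptions were Foxl2, Kitl and Nr5a2. Kitl was above it on 3 SCC, 3 cytoplast and 1 MII oocyte arrays, with a log2 difference between SCC and cytoplast of 0.73 (limma adjusted p = 0.156). Nr5a2 was above it on 3 arrays of each group, with that difference at 0.04 (adjusted p = 0.972). Foxl2 was above it on 1 cytoplast, 2 MII oocyte and no SCC arrays, with that difference at -0.11 (adjusted p = 0.688). None of the 8 cumulus and granulosa markers tested was called in that comparison. The summed cumulus marker intensity was 552.2 to 677.8 in the SCC, 467.1 to 609.2 in the cytoplast and 498.6 to 609.6 in the MII oocyte, against 32960 to 45340, 24110 to 43030 and 26000 to 42810 for oocyte markers. Beta-actin controls at the 3′ end exceeded those at the 5′ end by 3.42 ± 0.201 (log2, SD) on 3 SCC arrays. On 4 cytoplast arrays the excess was 4.62 ± 0.687 (SD), with p = 0.0571 by an exact permutation test, two-sided, or 0.171 adjusted over 3 measures. The other measures were the Gapdh 3′ to 5′ difference (exact permutation p = 0.457, n = 3 and 4) and the 95th percentile of intensity (exact permutation p = 0.114, n = 3 and 4). On 4 arrays (cytoplast 4, MII oocyte 2 and 4, SCC 3) the spiked-in hybridisation controls were brighter (mean log2 11.11 to 11.32) than on the other 6 (9.87 to 10.68). MII oocyte replicate 3 had a mean r of 0.976 with its own group over the probe sets tested and 0.983 with the other groups. The values were 0.983 and 0.985 for MII oocyte replicate 4 and 0.982 and 0.982 for replicate 2, while each SCC and cytoplast array correlated more with its own group. Members are also given without MII oocyte replicate 3, the lowest within its group, and within each set of controls where this bears on them.

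The relative level of Rheb was 1.59-fold higher in the SCC than in cytoplasts, with no overlap of arrays. The SCC arrays read 5264, 6998 and 6316 in replicates 1 to 3. The cytoplast arrays read 3693, 3554, 4604 and 3705 in replicates 1 to 4. The MII oocyte arrays read 3649, 5419 and 4078 in replicates 2 to 4. No cytoplast array reached the lowest SCC array, while MII oocyte replicate 3 lay within the SCC's range. Mean intensity was 6193 ± 874 for the SCC (SD, n = 3), 3889 ± 482 for cytoplasts (SD, n = 4) and 4382 ± 923 for MII oocytes (SD, n = 3). The log2 difference between SCC and cytoplast was 0.67 (SE 0.161, 95% interval 0.32 to 1.02, limma adjusted p = 0.0306). Within the arrays with brighter controls it was 0.77 (1 array against 1), and within the others 0.63 (2 against 3).

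That call for Rheb depended on scaling and on single arrays. The log2 difference was 0.35 after cyclic loess (adjusted p = 0.398) and 0.43 after quantile normalization (adjusted p = 0.286). Rheb's is one of the brightest probe sets of the array, above 98.8% of those tested, and bright probe sets as a class stood higher in the SCC. Among the 806 with a mean log2 of at least 11, the median difference was 0.25, against 0.01 for all probe sets tested, and 133 (16.5%) were called higher. Of these 806, 64 including Rheb differed by at least Rheb's value. With a limit of 12 instead, 336 remained, with a median of 0.21, 39 (11.6%) called higher and 17 at or above Rheb. Rheb's rank among the 806 was at the percentile 92.1, and after cyclic loess, where their median was -0.07, at 91.3. Rheb passed in 5 of the 10 fits that each left out 1 array. It was lost without cytoplast replicate 1 (adjusted p = 0.0899), cytoplast replicate 2 (0.0907), cytoplast replicate 4 (0.0524), SCC replicate 2 (0.15) or SCC replicate 3 (0.131). The part of brightness in this result was not tested.

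**Figure D1:**
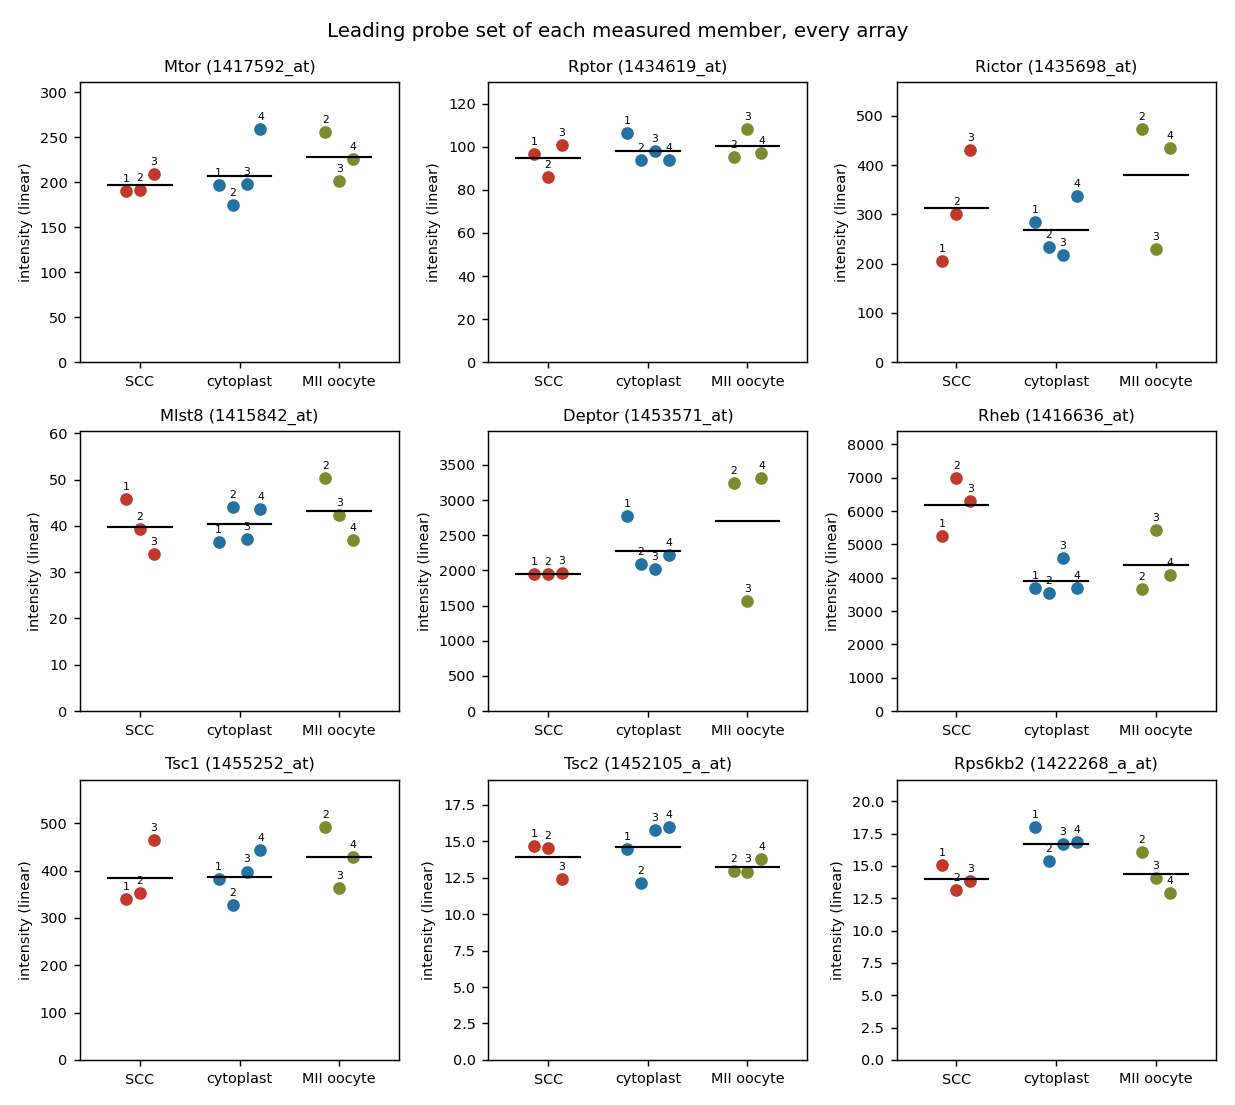
Intensity (linear scale, each vertical axis from 0) of the leading probe set of 8 members, and the only one of Tsc2 (untested), on all 10 arrays, by group. Points are arrays with their replicate number and black lines are group means. Rheb has its 3 SCC arrays (5264 to 6998) above the 4 cytoplast arrays (3554 to 4604), whereas Mtor, Rptor, Rictor, Mlst8, Tsc1 and Tsc2 overlap between these groups.

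Deptor, which encodes an inhibitory subunit of both mTOR complexes, gave different answers from its probe sets. The probe set 1428622_at read 249, 302 and 359 in SCC replicates 1 to 3. It read 164, 188, 200 and 122 in cytoplast replicates 1 to 4. In MII oocyte replicates 2 to 4 it read 129, 237 and 214. All SCC arrays lay above all arrays of both other groups. The difference from the cytoplast was 1.81-fold (log2 0.85, SE 0.231, 95% interval 0.35 to 1.36, limma adjusted p = 0.0472), from means of 303 ± 55.1 (SD, n = 3) and 169 ± 34.2 (SD, n = 4).

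The brightest probe set of Deptor, 1453571_at, lay the other way. It read 1943, 1949 and 1969 in SCC replicates 1 to 3. It read 2774, 2095, 2013 and 2224 in cytoplast replicates 1 to 4. In the MII oocyte it read 3245, 1566 and 3317 in replicates 2 to 4. Every SCC array was below every cytoplast array, but the difference did not pass (log2 -0.21, SE 0.231, 95% interval -0.71 to 0.30, adjusted p = 0.695). A further probe set, 1451348_at, read 164 to 183 in the SCC and 188 to 263 in the cytoplast, again with no overlap and without passing (log2 -0.33, adjusted p = 0.496). The 2 remaining tested probe sets, 1419963_at and 1443579_s_at, overlapped between all groups, with adjusted p of 0.987 and 0.863. The latter was below background on all arrays.

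Where on the Deptor transcripts each lies was not analysed here. The call for 1428622_at was lost after cyclic loess (log2 0.66, adjusted p = 0.171), after quantile normalization (log2 0.59, adjusted p = 0.192), without a filter on dim probe sets (log2 0.85, adjusted p = 0.07), with 16 added before log2 (log2 0.80, adjusted p = 0.0605) and in 6 of the 10 fits that left out an array, namely cytoplast replicate 1, 2 or 4, MII oocyte replicate 4, or SCC replicate 2 or 3 (highest adjusted p = 0.217). Within arrays of brighter controls its difference was 1.55 (1 against 1) and within the others 0.58 (2 against 3).

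**Figure D2:**
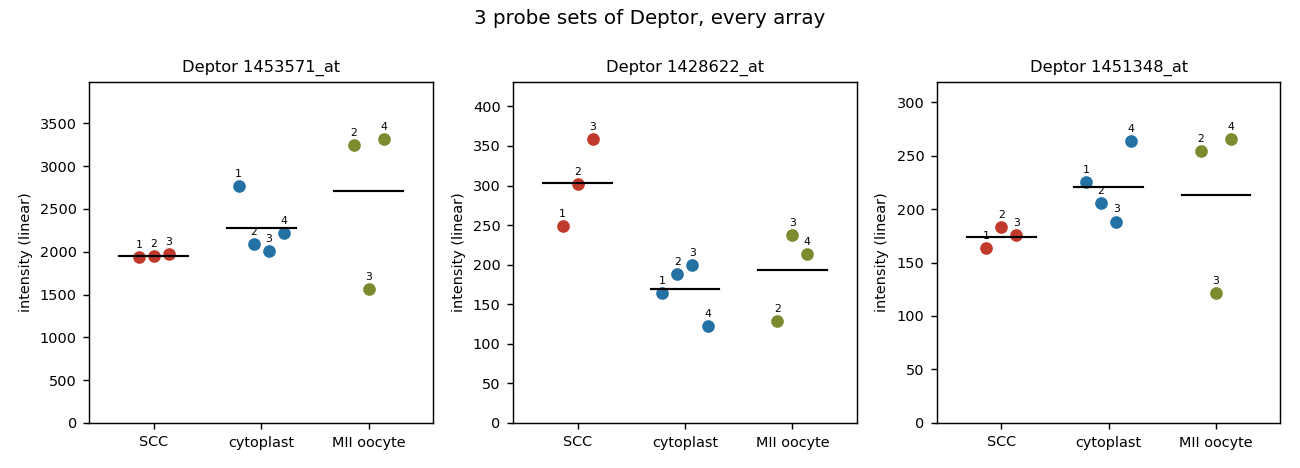
Intensity (linear scale, each vertical axis from 0) of 3 probe sets of Deptor on all 10 arrays, by group. Points are arrays with their replicate number and lines are group means. The SCC arrays are the highest for 1428622_at (249 to 359) and lie below all cytoplast arrays for 1453571_at and 1451348_at.

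The kinase Mtor itself did not pass in any comparison. Its leading probe set 1417592_at read 190, 191 and 210 in SCC replicates 1 to 3, and 197, 174, 198 and 259 in cytoplast replicates 1 to 4. MII oocyte replicates 2 to 4 read 255, 202 and 226. The groups overlapped, and the log2 difference between SCC and cytoplast was -0.06 (SE 0.145, 95% interval -0.37 to 0.26, adjusted p = 0.881). The second probe set, 1436267_a_at, read 93.8, 94.9 and 96.4 in the SCC and 101, 109, 115 and 124 in the cytoplast. These did not overlap, yet the difference did not pass (log2 -0.24, SE 0.105, adjusted p = 0.232), and it was above background on 1 of 3 SCC arrays.

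Neither scaffold that defines a complex passed. Raptor's transcript Rptor read 86.1 to 101 in the SCC, 93.8 to 106 in the cytoplast and 95.2 to 108 in the MII oocyte, near the background level (above it on 7 of 10 arrays). Its log2 difference between SCC and cytoplast was -0.05 (SE 0.109, 95% interval -0.29 to 0.19, adjusted p = 0.855). Rictor's leading probe set 1435698_at read 206, 300 and 432 in the SCC, and 285, 234, 217 and 338 in cytoplast replicates 1 to 4. In the MII oocyte it read 474, 231 and 436 in replicates 2 to 4. Its arrays spread more than 2-fold within the SCC and the MII oocyte, and the difference of 0.18 has a wide 95% interval of -0.45 to 0.81 (adjusted p = 0.803). A dimmer Rictor probe set, 1453775_at, read 74.5 to 91.5 in the SCC and 39.5 to 71.4 in the cytoplast with no overlap (adjusted p = 0.235). It was above background on 1 of 10 arrays, so no fold is given.

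Mlst8, which encodes a subunit common to both complexes, was below background on all arrays. It read 33.8 to 45.9 in the SCC, 36.5 to 44.2 in the cytoplast and 37.0 to 50.4 in the MII oocyte, with overlapping groups (adjusted p = 0.945 between SCC and cytoplast).

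Among the regulators upstream of Rheb, the leading probe set of Tsc1 was above background on all arrays and did not separate the groups. It read 339, 353 and 464 in SCC replicates 1 to 3, and 382, 327, 398 and 443 in cytoplast replicates 1 to 4. MII oocyte replicates 2 to 4 read 493, 364 and 429. The log2 difference between SCC and cytoplast was -0.01 (SE 0.156, 95% interval -0.36 to 0.33, adjusted p = 0.979), which in fold terms spans 0.781 to 1.26. A dimmer tested probe set of Tsc1, 1422043_at, was below background on all arrays (limma adjusted p = 0.979). Tsc2, the partner of Tsc1 and the subunit that acts on Rheb, was below background on all arrays (12.16 to 16.01) and was not tested.

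Of the S6 kinases, the effectors downstream of the first complex, Rps6kb2 was measured by 1 dim probe set. It read 13.1 to 15.1 in the SCC, 15.4 to 18.0 in the cytoplast and 12.9 to 16.1 in the MII oocyte. The SCC and cytoplast did not overlap, but all arrays were below background, so no fold is given (adjusted p = 0.24). Cytoplast arrays met the filter for testing, whereas no SCC array reached the SCC medians (15.7 to 15.9). That selection favours a lower SCC level, so the lack of overlap is not read as a result.

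Across the 17 tested probe sets, 2 (of Rheb and Deptor) were called higher in SCC against cytoplast, where 6.74% of all 23737 were, and none was called lower, where 0.274% were. At an unadjusted limma p under 0.05, 3 were higher and 2 lower, 5 of 17 in all, where 20.2% of all probe sets passed that level. Without overlap of arrays, 3 stood higher and 4 lower, against 13.9% and 5.89% of all probe sets. Of those 4, Deptor accounts for 2. Both sets of counts include the dim Rictor 1453775_at as higher and Rps6kb2 as lower. Neither was above background on any SCC or cytoplast array, and Rps6kb2 met the filter through cytoplast arrays. The members' median difference was -0.01, beside 0.01 for all probe sets tested. With the control split as a block, an alternative chosen after seeing the data, 3 were called higher, the dim Rictor probe set having joined (adjusted p = 0.0368). No fold is given for it, since all its SCC and cytoplast arrays were below background.

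**Figure D3:**
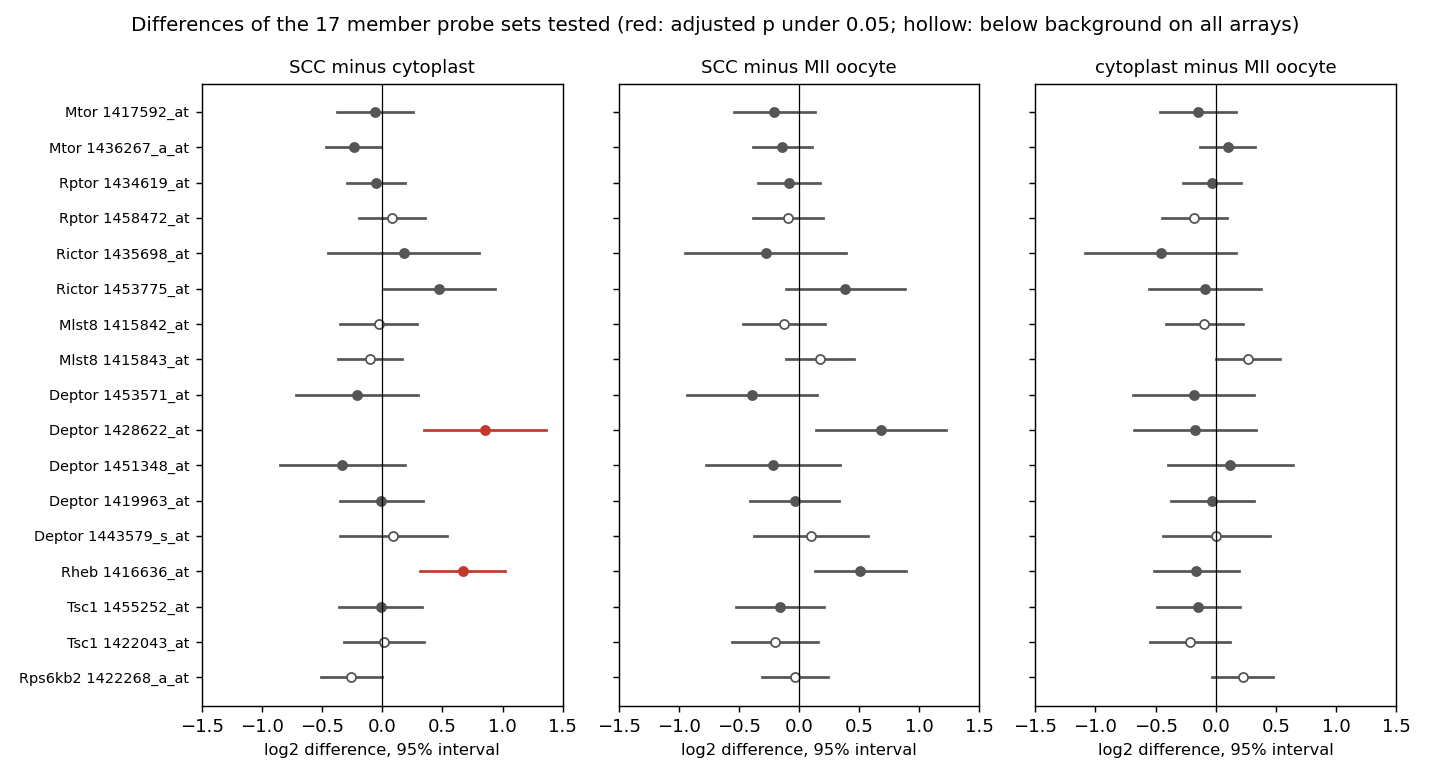
Log2 difference (points) with 95% interval (lines) for the 17 tested probe sets of 8 members, in the 3 comparisons. Hollow points are the 6 probe sets below background on all arrays, whose values are not read as folds. Red marks an adjusted p under 0.05, which Rheb (0.67) and Deptor 1428622_at (0.85) reached between SCC and cytoplast and no probe set reached in the other comparisons.

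The leading probe sets of Mtor, Rictor and Tsc1 separated the arrays with brighter hybridisation controls from the others. Within the brighter set they did not rise with the control level. On the 4 arrays with brighter controls Mtor read 210 to 259, and on the other 6 it read 174 to 202. Rictor read 338 to 474 on those 4 and 206 to 300 on the rest. Tsc1 read 429 to 493 on those 4 and 327 to 398 on the rest. In each case all 4 arrays lay above all 6, which held for 3 of the 17 tested member probe sets and for 5.23% of all probe sets. None of the 17 showed the reverse, which held for 0.855% of all probe sets. The other tested probe sets of Mtor, Rictor and Tsc1 overlapped between the control sets. Mtor 1436267_a_at read 96.4 to 124 on those 4 arrays and 93.8 to 115 on the rest. The dim Rictor 1453775_at read 39.5 to 74.5 on those 4 and 56.4 to 91.5 on the rest. Tsc1 1422043_at, below background on all arrays, overlapped only just, at 24.88 to 30.58 on those 4 and 19.47 to 24.89 on the rest. Rheb did not separate the control sets, reading 3649 to 6316 on those 4 arrays and 3554 to 6998 on the rest. The split was made after seeing the data and no label names a batch; its part in these levels was not tested.

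**Figure D4:**
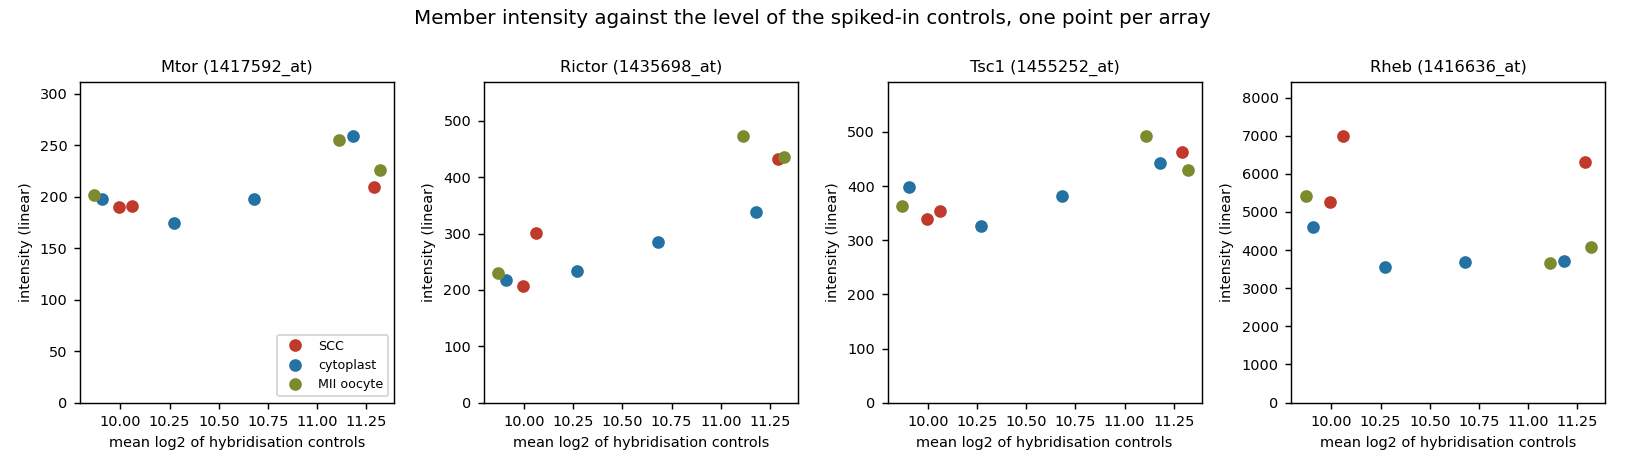
Intensity (linear scale, vertical axes from 0) of the leading probe sets of Mtor, Rictor, Tsc1 and Rheb against the mean log2 level of the hybridisation controls, with 1 point per array and colour for the group. For Mtor, Rictor and Tsc1 the 4 arrays at 11.11 or more are the highest, and for Rheb they are spread from 3649 to 6316.

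Against the intact MII oocyte, none of the 17 probe sets passed in the SCC and 0.0421% of all probe sets were called higher. At an unadjusted limma p under 0.05 there were 2 of 17, both higher, a share near the 12.1% of all probe sets at that level. The values were 0.51 (SE 0.172, 95% interval 0.13 to 0.89, adjusted p = 0.25) for Rheb and 0.68 (SE 0.247, adjusted p = 0.282) for Deptor 1428622_at. Within arrays of brighter controls they were 0.71 and 1.11 (1 against 2), and within the others 0.16 and 0.21 (2 against 1). Without MII oocyte replicate 3 these became 0.67 (adjusted p = 0.0535) and 0.85 (adjusted p = 0.0948). In that fit the brightest Deptor probe set was called lower in the SCC (log2 -0.75, SE 0.151, adjusted p = 0.0309), from -0.39 (adjusted p = 0.591) with all arrays. Its difference changed sign between the control sets: -0.74 within arrays of brighter controls (1 against 2) and 0.31 within the others (2 against 1). The MII oocyte arrays left in that fit, replicates 2 and 4, both had brighter controls, whereas SCC replicates 1 and 2 did not. The part of the control level in that call was not tested. Mtor and Rictor had differences of -0.20 and -0.28 with all arrays (adjusted p = 0.675 and 0.795). Within arrays of brighter controls these were -0.20 and -0.07 (1 against 2), and within the others -0.08 and 0.11 (2 against 1). Between the cytoplast and the MII oocyte no probe set of the array passed the limma test (0% of all), while 1054 (4.44%) had an unadjusted p under 0.05, 1 of them the dimmer Mlst8 probe set, which was below background on all arrays. The log2 difference was -0.46 for Rictor, -0.16 for Rheb, -0.17 for Deptor 1428622_at and -0.18 for its brightest probe set. For Rictor it was -0.43 within arrays of brighter controls (1 against 2) and 0.08 within the others (3 against 1). For the brightest Deptor probe set these values were -0.56 and 0.54. These comparisons share arrays, so their values are given side by side only.

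Other genes of the pathway were counted at 1 probe set per gene, where 8.02% of all 12713 genes were called higher in SCC against cytoplast. Measured here means having a tested probe set. Some genes of each list were above background on no array, and for those a missing call says little. Of 25 measured genes that signal amino acid supply to mTOR at the lysosome, 3 were higher and none lower, with a median of 0.14 beside 0.02 for all genes. The 3 were Lamtor2 and Lamtor3, subunits of the Ragulator scaffold that holds the Rag GTPases, and Fnip1, a partner of folliculin. Lamtor2 read 162, 184 and 210 in the SCC, and 87.9, 109, 114 and 107 in cytoplast replicates 1 to 4. All 4 cytoplast arrays were above background, replicate 1 only just (87.9 against a level of 84.35). Its relative level was 1.77-fold higher in the SCC (log2 0.83, SE 0.138, adjusted p = 0.00843). The call held with cyclic loess (adjusted p = 0.023), with quantile normalization (0.0312) and in 9 of the 10 fits that left out an array, all except that without SCC replicate 3. Fnip1 was 2.29-fold higher (log2 1.19, SE 0.251, adjusted p = 0.0175) and kept most of that size while missing the threshold after cyclic loess (log2 0.97, adjusted p = 0.0814) and quantile normalization (log2 0.90, adjusted p = 0.0937). It also missed it without cytoplast replicate 1 or 2 or SCC replicate 2 or 3. Lamtor3 was 1.35-fold higher (log2 0.44, adjusted p = 0.0394). Its difference shrank to 0.105 after cyclic loess (adjusted p = 0.7) and to 0.26 after quantile normalization (adjusted p = 0.29), and it missed the threshold without any 1 of the cytoplast arrays, and without SCC replicate 2 or 3.

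Of 20 measured upstream genes (receptors, phosphoinositide 3-kinase, Akt and AMPK), 1 was higher, the receptor tyrosine kinase Kit (1.8-fold, log2 0.85, adjusted p = 0.0235), which was above background on 2 of 4 cytoplast arrays. Its log2 difference was 0.74 after cyclic loess (adjusted p = 0.0857) and 0.69 after quantile normalization (adjusted p = 0.106). The call was also lost without cytoplast replicate 1 or 2 or SCC replicate 1 or 2. The median of this list was -0.04. Irs1, an adaptor of the insulin receptor, had the next smallest p (adjusted p = 0.159) and was below background on all arrays.

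None of 9 measured partners of the complexes passed (1 at an unadjusted limma p under 0.05, where 22.3% of all genes were; median 0.02). Akt1s1, Tti2, Telo2 and Tbc1d7 among them were above background on no array. Rhebl1, a close relative of Rheb, averaged 863 ± 41.3 on SCC arrays (SD, n = 3) and 612 ± 83.4 on cytoplast arrays (SD, n = 4), a log2 difference with limma of 0.50 (SE 0.149, adjusted p = 0.0677). Tti1, which helps mTOR fold and assemble, had one of -0.31 (adjusted p = 0.375).

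None of 19 measured targets of mTOR and S6 kinase passed (3 at an unadjusted limma p under 0.05, against the same 22.3%; median -0.01). Eef2, Eif4ebp2, Larp1, Atg13, Tfeb, Sgk2, Prkca and Lpin1 among them were above background on no array. Eif4b, an initiation factor that S6 kinase phosphorylates, had the smallest p (log2 0.52, SE 0.15, adjusted p = 0.0637), followed by the autophagy kinase Ulk1 (log2 0.30, adjusted p = 0.164). The translation repressor Eif4ebp1 (log2 -0.52, SE 0.34, adjusted p = 0.446) and the cap-binding protein Eif4e (log2 -0.10, SE 0.18, adjusted p = 0.827) did not pass. In SCC against MII oocyte 0.0472% of genes were called higher, and none of these 4 lists had a called gene there or in cytoplast against MII oocyte.

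By Pearson correlation of log2 values over the 10 arrays, the genes most like Rheb among 12712 were N4bp2 (r = 0.992), Nae1 (0.988) and Gch1 (0.987). Their log2 differences between SCC and cytoplast were 1.18, 0.90 and 0.80, a direction that the choice by likeness to Rheb favours. Those most like Mtor were Yaf2 (r = 0.966), Kmt2b (0.965) and Irf2bp1 (0.953, below background on all arrays). The genes were picked as the highest of many correlations that share the same 10 arrays, so they describe these arrays and carry no test.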

How the data were processed

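Each probe set has 1 deposited intensity per array, on a linear scale. The submitters' processing notes name RMA, without version or settings, so background and scaling steps stay unknown, and upper percentiles still differ between arrays. Scanner files were not used here.

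Values were taken to log2. Leaving aside 64 controls, the annotation gives a single gene for 34945 probe sets, several genes for 932 and none for 9160. Of the single-gene ones, 34741 matched the RefSeq gene table (GRCm38.p6) by gene ID, which was used for names only. Coordinates and sequences were not used here because the annotation's build is not given and expression levels do not bear on promoters. The test was limma 3.58.1 in R 4.3.3 over all 10 arrays, with 1 mean per group, default moderation and Benjamini-Hochberg adjustment over the 23737 probe sets that exceeded the median of 3 or more arrays, at a threshold of 0.05. The fit was tested on simulated data. The leading probe set of a gene is the tested one with the highest mean; Tsc2, with none tested, is shown by its only probe set.

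Members and lists were chosen with earlier results of these data known. Named genes were all members, every called gene of the 4 pathway lists or else the 2 with the smallest p in SCC minus cytoplast, Eif4ebp1 and Eif4e, and the 3 genes most alike to Rheb and Mtor. The brightness limits of log2 11 and 12 and the control split were chosen after values were seen. Alternatives were cyclic loess, quantile normalization, other filters, an offset of 16, 2 groups only, each array left out, the mean of a member's probe sets, the replicate number as a block, and the hybridisation control level. The number of arrays limits the precision. Residuals of arrays with the same replicate number had a mean correlation of 0.0215 across 8 pairs (range -0.304 to 0.614), and the labels do not say that a number marks a shared pool.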

Additional observations from a re-analysis of the deposited data

Results flagged for a closer look

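For Rheb, cytoplast replicate 3 read 4604, far from the other 3 cytoplast arrays, which read 3554 to 3705. Without it the log2 difference between SCC and cytoplast was 0.75 (limma adjusted p = 0.0279). This was the only such array among the 17 member probe sets in the cytoplast, the only group large enough to be examined in this way. Chance marks about 1 in 20 groups.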

How the results depend on the processing

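Between SCC and cytoplast, the 2 higher calls among members became 0 after cyclic loess and after quantile normalization, 1 (Rheb) without a filter on dim probe sets, with an offset of 16 and with the replicate block, and 0 to 2 with 1 array left out. The cause was not tested. Over all probe sets, 1599 higher and 65 lower calls (96.1% higher) became 503 and 120 after cyclic loess (80.7%), 419 and 153 after quantile normalization (73.3%), 2767 and 293 with the control level as a covariate, and 2525 and 251 with the control split as a block. Lower calls were 43 with the offset, 185 with only the arrays of both groups and 110 with the replicate block, which gave 1834 higher. With 1 array left out they were 243 to 2044 higher and 1 to 191 lower. Leaving out SCC replicate 3 gave 243 higher, SCC replicate 2 gave 271, cytoplast replicate 1 gave 578 and cytoplast replicate 2 gave 678.

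The 10 higher and 0 lower calls between SCC and MII oocyte became 6 after quantile normalization, 16 without a filter, 25 with the offset, 0 with only the arrays of both groups, 125 and 14 with the replicate block, 296 and 15 with the control level and 308 and 19 with the control split. With 1 array left out they were 0 to 444 higher and 0 to 253 lower, the most without MII oocyte replicate 3, where members called lower were 1 and otherwise 0.

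Members that missed the threshold also changed sign. Between SCC and cytoplast Mtor was 0.0019 and Tsc1 0.0284 with the replicate block, Tsc1 0.0014 with the control level, and Rictor -0.0436 after cyclic loess and -0.1055 after quantile normalization. With 1 array left out, Mtor ran from -0.1363 to 0.0546, Rptor from -0.1009 to 0.0134, Rictor from -0.0864 to 0.4456, Mlst8 (below background) from -0.1389 to 0.0803 and Tsc1 from -0.1543 to 0.0715. Between cytoplast and MII oocyte Rheb was 0.0299 after cyclic loess and ran from -0.2813 to 0.0040, and Deptor's brightest probe set ran from -0.5387 to 0.0028. Rheb kept its direction between SCC and cytoplast under every alternative run, as did Deptor 1428622_at. The replicate block gave 0.6525 for Rheb (adjusted p = 0.033) and 0.821 for Deptor 1428622_at (adjusted p = 0.0516), and Lamtor3 also missed the threshold (adjusted p = 0.0553). Averaging a member's tested probe sets gave 0.0791 for Deptor and 0.0153 for Rptor there, and 0.0278 for Deptor and 0.0543 for Rictor between SCC and MII oocyte, all turned in sign. Levels near or below background bound what Mlst8, Tsc2, Rps6kb2 and Rptor can show.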
